A study of Mus musculus with 9 samples.

Results

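The miRNAs described here are those best known from liver and gut, miR-122, miR-192, miR-194, miR-215 and miR-802, as they were read in mouse fat. Every row of the miRNA table whose name starts with one of these 5 names was taken, which gave 11 of 1251 miRNAs. The set was chosen by name, with the log2 levels of these miRNAs in BAT, SAT and VAT already known. Their levels and differences between depots are therefore given as a description, with the spread between libraries and without a test.
Small RNA was sequenced from interscapular brown (BAT), inguinal subcutaneous (SAT) and epididymal visceral (VAT) adipose tissue of male C57BL/6J mice, with 3 libraries per depot. The mice, wild type and aged 5 to 6 weeks at the start, received a HFD with 45% of energy from fat for 11 weeks and were fasted for 4 hours before tissue collection, so that all 9 libraries share strain, sex and diet. There was no low fat group in the small RNA sequencing, and depot is the one factor that differs between the groups. The labels do not say which libraries came from the same mouse. Each library is named by its depot and the number in its title, such as BAT 12.

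MiR-122 is the dominant miRNA of hepatocytes, where it is known for its part in cholesterol and lipid metabolism. MiR-192, miR-194 and miR-215 are made from clustered genes and are known from the epithelium of intestine and kidney and from liver. MiR-802 is known from liver, pancreas and intestine, and has been tied to glucose metabolism in obesity. MiR-122 and miR-192 are also known as circulating miRNAs in plasma. BAT burns fuel for heat, whereas SAT and VAT are white fat that stores it.

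A miRNA recognises its targets mainly through its seed, bases 2 to 8 from the 5′ end. RefSeq sequences on GRCm38.p6 matched 9 of the 11 names by the name of the mature miRNA. The guide strands are shown with the seed in capitals, because the seeds show which members could act on the same targets.
miR-192-5p: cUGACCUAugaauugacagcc
miR-215-5p: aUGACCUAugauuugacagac
miR-194-5p: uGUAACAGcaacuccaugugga
miR-802-5p: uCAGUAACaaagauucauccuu
MiR-192-5p and miR-215-5p had the same seed and the same base at 18 of 21 positions. Counted from the 5′ end of miR-192-5p, they differed by C1A, A12U and C20A. No other mature mouse miRNA in the RefSeq table of 1679 names had this seed, and the seeds of miR-194-5p and miR-802-5p were shared with no other name.

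The mature miR-194-5p is encoded at more than 1 place in the genome. Both hairpins are shown with miR-194-5p in capitals, because the same 22 bases come from each and reads of miR-194-5p cannot be assigned to one or the other.
Mir194-2: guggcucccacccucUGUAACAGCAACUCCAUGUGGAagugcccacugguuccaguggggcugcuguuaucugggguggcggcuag
Mir194-1: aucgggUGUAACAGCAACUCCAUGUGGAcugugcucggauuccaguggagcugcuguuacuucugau
Mir194-2 lies on the plus strand of chr19:6264643-6264728 (GRCm38), 115 bases before Mir192 at chr19:6264844-6264932, and GENCODE release M21 placed neither in another gene. Mir194-1 lies on the plus strand of chr1:185313319-185313385, 195 bases before Mir215 at chr1:185313581-185313692. This pair lies within an intron of Iars2 on the opposite strand. On its own strand, Mir194-1 lies in an intron and Mir215 in an exon of the antisense RNA 2010103J01Rik.

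Mir802 is at chr16:93369720-93369816, outside other annotated genes, 690 bases beyond the end of the long non-coding RNA 1810044K17Rik. Mir122 lies in an exon of the long non-coding RNA AC157910.3, on the plus strand of chromosome 18 from 65248861 to 65248926.

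Of the 11 members, 4 were above the lowest value of the table somewhere. These were miR-122-5p, miR-192-5p, miR-194-5p and miR-802-5p, all of them 5p strands. The lowest value is 3.32 on the log2 scale and is the same in every library. The sources used here do not say what sets it, and a miRNA at this value cannot be told apart from one without reads. The other 7 members were at this value in all 9 libraries. They were miR-215-5p, miR-215-3p, miR-122-3p, miR-192-3p, miR-194-1-3p, miR-194-2-3p and miR-802-3p. A member at the lowest value was not detectable in this table, which does not show that it was absent, and the depth of each library is unknown.
To set the members beside other miRNAs, a filter kept those exceeding the lowest value in 3 or more of the 9 libraries, which 343 of the 1251 miRNAs and 3 of the 11 members passed. MiR-802-5p did not pass, and miR-122-5p passed through its 3 BAT libraries and VAT 17, so that its difference from BAT follows in part from the filter.

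BAT had the highest mean level of all 4 detected members, and SAT had the lowest mean of miR-192-5p and miR-194-5p. MiR-122-5p was close to being limited to BAT, miR-192-5p was read in every library, miR-194-5p in 8 of 9, and miR-802-5p in BAT 20 alone. In bulk tissue, fewer cells of a type and less RNA per cell cannot be told apart.

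**Figure D1:**
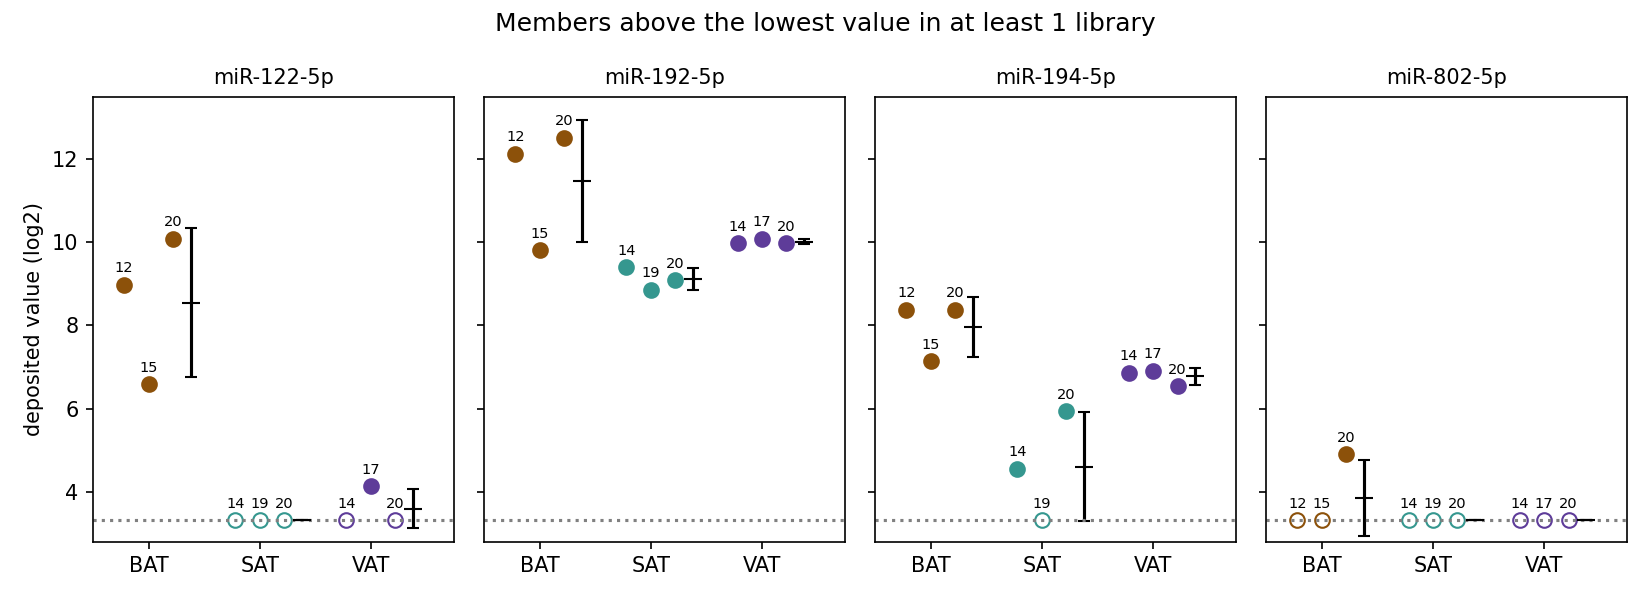
Log2 values as deposited (vertical axis) of the 4 members that exceeded the lowest value anywhere, by depot. Each circle is 1 library with its number, open circles are at the lowest value of 3.32 (dotted line), and bars give the mean and SD of 3 libraries. MiR-122-5p is between 6.59 and 10.08 in BAT and at or near the lowest value elsewhere, and BAT 15 is the lowest of the BAT libraries for miR-122-5p, miR-192-5p and miR-194-5p.

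MiR-122-5p had log2 values of 8.98 in BAT 12, 6.59 in BAT 15 and 10.08 in BAT 20. It was at 3.32 in the 3 SAT libraries and in VAT 14 and VAT 20, and at 4.14 in VAT 17. Every BAT library was thus above every SAT and VAT library. Ranked among the 1251 miRNAs of a library, it stood at 116 in BAT 12, 195 in BAT 15 and 90 in BAT 20. The BAT mean was 8.55 ± 1.78 and the VAT mean 3.59 ± 0.47 (SD, n = 3 each), so that VAT minus BAT was -4.96 on the log2 scale, a lower bound in size because VAT 14 and VAT 20 were at the lowest value. SAT minus BAT was -5.23, also a lower bound in size since every SAT library was at the lowest value. On the deposited scale this is 37.5-fold between the depot means, and BAT 15 alone lay closer to SAT. Deposited values mostly reflect a rank, so that this fold is not a measured ratio of abundance. Without BAT 15 the differences were -5.93 in VAT minus BAT and -6.21 in SAT minus BAT, and without BAT 20 they were -4.19 and -4.46. The spread within BAT was large, with 11.2-fold more in BAT 20 than in BAT 15 on the unlogged scale. This range of 3.49 on the log2 scale was smaller than either difference from BAT. Of the 343 tested miRNAs, 7 had a VAT minus BAT difference this low and 6 a SAT minus BAT difference this low, miR-122-5p included in both counts. Between VAT and SAT the libraries overlapped, and VAT 17 was the one library of either depot above the lowest value.

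MiR-192-5p was the most abundant member in every library. Its log2 values were 12.12, 9.80 and 12.50 in BAT 12, BAT 15 and BAT 20. They were 9.40, 8.86 and 9.08 in SAT 14, SAT 19 and SAT 20, and 9.97, 10.08 and 9.97 in VAT 14, VAT 17 and VAT 20. BAT 12 and BAT 20 stood above all other libraries, whereas BAT 15 lay below all 3 VAT libraries and above the SAT libraries. It ranked 51 and 45 in BAT 12 and BAT 20, 95 in BAT 15, and between 90 and 119 in SAT and VAT. The depot means were 11.48 ± 1.46 for BAT, 9.11 ± 0.27 for SAT and 10.01 ± 0.06 for VAT (SD, n = 3 each). The log2 difference was -2.36 in SAT minus BAT, without overlap, and it was -3.20 without BAT 15 and -1.85 without BAT 20. In VAT minus BAT it was -1.47, about the size of the SD in BAT and with overlapping libraries, and it was -2.30 without BAT 15 and -0.95 without BAT 20. VAT was above SAT in every library, by 0.89 on the log2 scale, a difference more than 3 times the larger of both SDs.

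MiR-194-5p, the cluster partner of miR-192 and miR-215, had log2 values of 8.37 in BAT 12, 7.14 in BAT 15 and 8.37 in BAT 20. It was 4.55 in SAT 14, at the lowest value of 3.32 in SAT 19, and 5.94 in SAT 20. In VAT 14, VAT 17 and VAT 20 it was 6.87, 6.91 and 6.54. The depots followed each other without overlap, BAT above VAT and VAT above SAT. BAT 15 was the BAT library closest to VAT. Means by depot were 7.96 ± 0.71 for BAT, 4.61 ± 1.31 for SAT and 6.77 ± 0.20 for VAT (SD, n = 3 each). The log2 difference was -1.19 in VAT minus BAT, -3.36 in SAT minus BAT and 2.17 in VAT minus SAT, where both differences with SAT are lower bounds in size because SAT 19 was at the lowest value. Without SAT 19 they were -2.71 in SAT minus BAT and 1.53 in VAT minus SAT, and without SAT 20 they were -4.02 and 2.84. SAT 19, the library at the lowest value, also had the fewest miRNAs above that value, 240 against 255 to 349 in the others. By depot this number was 255 to 273 in BAT, 240 to 285 in SAT and 323 to 349 in VAT. The part of these numbers in the SAT level of miR-194-5p and in its difference from VAT was not tested.

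MiR-802-5p was above the lowest value in BAT 20 alone, with a log2 value of 4.91 and a rank of 243. BAT 12, BAT 15 and the 6 libraries of SAT and VAT were at 3.32, so that no difference between depots can be read from it. BAT 20 was also the library with the highest miR-122-5p and miR-192-5p.

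Both BAT comparisons use the same 3 BAT libraries, and each is given by its own counts. In VAT against BAT, 2 of the 3 members that passed the filter were lower in VAT without overlap, miR-122-5p and miR-194-5p, beside 27.7% of the 343 tested miRNAs. Without BAT 15 this count was 3. In SAT against BAT, 3 of 3 were lower in SAT without overlap, beside 21.0% of the tested miRNAs. In VAT against SAT, miR-192-5p and miR-194-5p were higher in VAT without overlap, 2 of 3 members beside 22.4% of the tested miRNAs. The members were proposed with these differences known, so that nothing is read from the shares. The median log2 difference of all tested miRNAs was 0.40 in VAT minus BAT, 0.26 in SAT minus BAT and 0.10 in VAT minus SAT, which is opposite in sign to the members' differences from BAT.

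**Figure D2:**
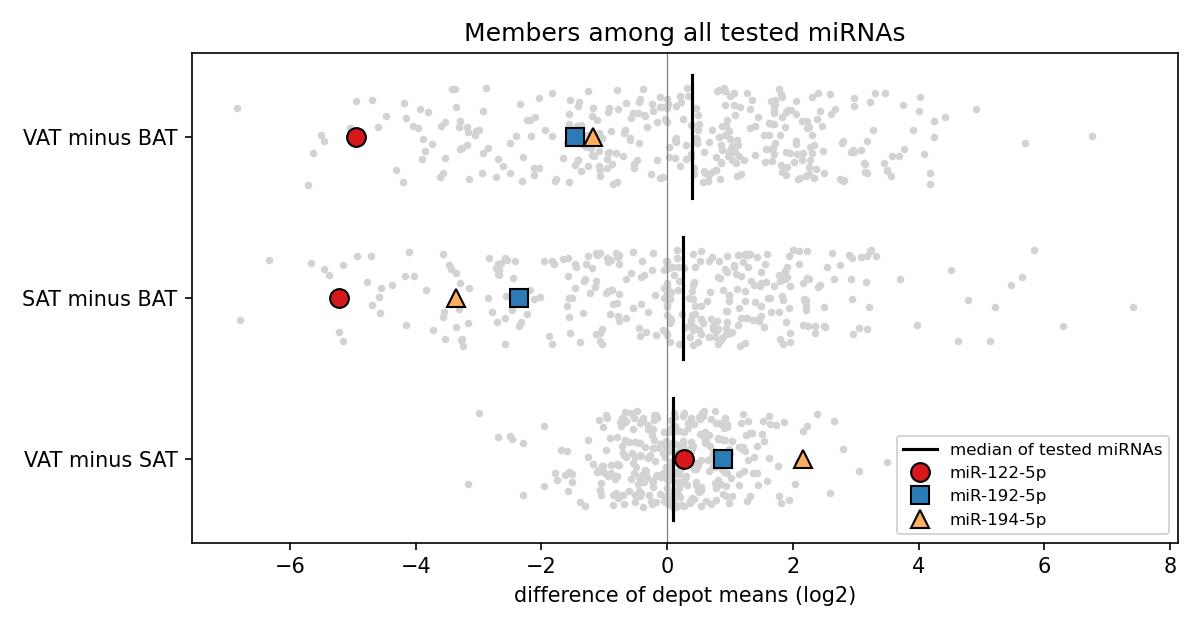
Difference of depot means on the log2 scale (horizontal axis) for the 343 tested miRNAs (grey points, spread vertically for visibility) in the 3 comparisons, with the 3 tested members as coloured symbols and the median of all tested miRNAs as a black line. MiR-122-5p lies near the low end in VAT minus BAT (-4.96) and SAT minus BAT (-5.23), and miR-194-5p near the high end in VAT minus SAT (2.17), all lower bounds in size because libraries of VAT or SAT are at the lowest value.

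The BAT libraries differed among themselves most in miR-122-5p and miR-192-5p of the 3 tested members, and BAT 15 was singled out after its values were seen. BAT 15 minus the mean of BAT 12 and BAT 20 was -2.94 on the log2 scale for miR-122-5p, -2.51 for miR-192-5p and -1.24 for miR-194-5p, where the median of all tested miRNAs was 0.00. Of the 343 tested miRNAs, 5 were as far below in BAT 15 as miR-122-5p, 7 as far as miR-192-5p and 26 as far as miR-194-5p, each counted with the member itself. The range over the BAT libraries was as wide as that of miR-122-5p for 5.25% of the tested miRNAs, as wide as that of miR-192-5p for 9.91%, and as wide as that of miR-194-5p for 37.9%. In VAT, in contrast, miR-192-5p ranged over 0.10 on the log2 scale, and 92.1% of the tested miRNAs had as wide a range or wider.
Within a BAT library, miR-192-5p exceeded miR-122-5p by 3.14, 3.21 and 2.43 on the log2 scale in BAT 12, BAT 15 and BAT 20. This distance ranged over 0.79, although miR-122-5p alone ranged over 3.49 and miR-192-5p over 2.70. Both were lowest in BAT 15 and highest in BAT 20. In SAT and VAT the same distance was 5.54 to 6.65, a lower bound in the 5 libraries where miR-122-5p was at the lowest value. The level of miR-192-5p in VAT lay within the range of BAT, while miR-122-5p in VAT was at most 4.14.
MiR-192-5p exceeded miR-194-5p by 2.67 to 4.13 on the log2 scale in BAT, by 3.11 to 3.43 in VAT and by 3.14 to 5.54 in SAT, where the highest is a lower bound from SAT 19. These distances overlapped between the depots. Mature miRNAs are of similar length, so that no length correction applies, but distances between miRNAs also depend on how efficiently each is captured in a library, which was not measured.

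**Figure D3:**
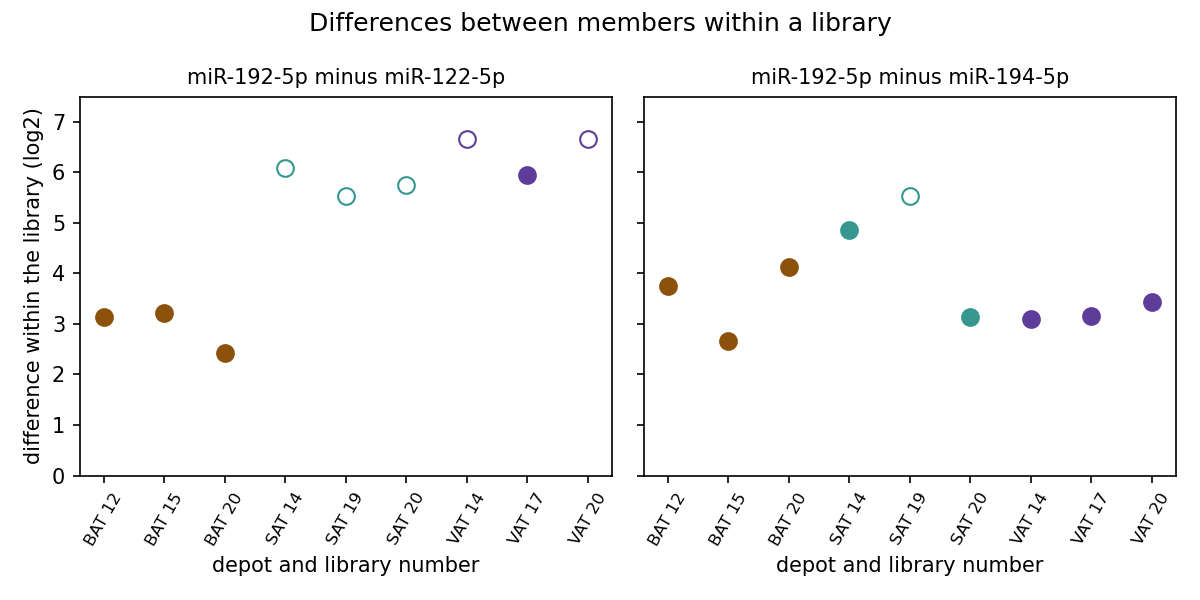
Difference within each library on the log2 scale (vertical axis) between miR-192-5p and miR-122-5p (left) and between miR-192-5p and miR-194-5p (right). Circles are the 9 libraries in the colours of their depots, and open circles are lower bounds because the subtracted miRNA is at the lowest value. The left distance is 2.43 to 3.21 in BAT and 5.54 to 6.65 in SAT and VAT.

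For each member that passed the filter, the 3 other tested miRNAs with the highest Pearson r over the 9 libraries were listed, as a description in which the libraries of a depot share their level. For miR-122-5p these were miR-1941-5p (r = 0.98), miR-219-1-3p (r = 0.97) and miR-1249-3p (r = 0.96). MiR-1941-5p and miR-219-1-3p exceeded the lowest value in the 3 BAT libraries alone and passed the filter only through them. Their r therefore mostly reflects BAT against the lowest value. MiR-1941-5p was likewise lower in BAT 15 than in the other BAT libraries, with 7.42, 4.66 and 7.78, and the 6 libraries of SAT and VAT were at 3.32. It was also first for miR-192-5p (r = 0.93), followed by miR-467d-5p (r = 0.92) and miR-1964-3p (r = 0.87). MiR-467d-5p exceeded the lowest value in BAT 12, BAT 20 and VAT 17 alone. Like miR-192-5p, miR-1964-3p was read in all 9 libraries and was lowest of the BAT libraries in BAT 15, with 8.16, 6.68 and 8.34.
For miR-194-5p the list was miR-673-5p (r = 0.90), miR-30c-1-3p (r = 0.88) and miR-361-3p (r = 0.86). MiR-673-5p and miR-30c-1-3p shared with miR-194-5p the lowest value in SAT 19, and miR-361-3p had its lowest reading there, 7.14. Between members, r was 0.91 for miR-122-5p with miR-192-5p, 0.83 for miR-192-5p with miR-194-5p and 0.74 for miR-122-5p with miR-194-5p. After the depot means were subtracted, these values were 0.94, 0.52 and 0.46. MiR-122-5p was at the lowest value throughout SAT and above it in VAT 17 alone of VAT. Its values of r after subtraction therefore rest mostly on the BAT libraries.

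The members were a small part of the summed miRNA values as deposited, which are not read counts. After the lowest value was subtracted from each unlogged value, they made up 0.219%, 0.0458% and 0.300% of the summed values in BAT 12, BAT 15 and BAT 20, 0.0189% to 0.0283% in SAT and 0.0449% to 0.0495% in VAT. MiR-192-5p gave 80.3% to 84.5% of this sum in BAT and at least 90.1% in each SAT and VAT library. BAT 15 was thus at the level of the VAT libraries, and the difference of BAT from VAT in this sum rested on BAT 12 and BAT 20.

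MiRNAs of other tissues were read in the same libraries. Known BAT miRNAs, looked up with earlier results known, set the BAT libraries apart for miR-455-3p (11.40 to 12.59 in BAT, at most 8.70 elsewhere) and miR-193b-3p (13.56 to 15.16, at most 11.29 elsewhere), whereas miR-365-3p overlapped, with 11.05 as the lowest value in BAT and up to 11.34 in SAT. Of 7 miRNAs of striated muscle, 4 were above the lowest value in BAT, 1 in SAT and 4 in VAT. Their summed level on the log2 scale was 10.18 to 18.68 in BAT, 9.94 to 10.83 in SAT and 9.94 to 17.21 in VAT, and miR-208a-3p, miR-208b-3p and miR-499-5p, known from heart and slow muscle, were at the lowest value throughout.
MiR-133a-3p, a muscle miRNA, was 10.10 in BAT 12, 17.20 in BAT 15 and 18.67 in BAT 20, and 17.20 in VAT 20. Among the BAT libraries, BAT 20 was highest in miR-133a-3p, miR-122-5p and miR-192-5p. BAT 12 was lowest in miR-133a-3p, and BAT 15 was lowest in miR-122-5p and miR-192-5p. MiR-133b-3p was 9.59, 10.82 and 9.76 in BAT 15, BAT 20 and VAT 20, 4.85 in VAT 17 and at the lowest value elsewhere. MiR-206-3p was 8.17 in BAT 15 and 8.23 in BAT 20, but 3.63 in VAT 20, and miR-1a-3p was 7.38 in BAT 20, 3.83 in VAT 20 and at the lowest value in BAT 15. Each detected muscle miRNA was highest in BAT 20 and, within VAT, in VAT 20. They differed in BAT 15, where only miR-1a-3p was at the lowest value.

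Of the 4 red blood cell miRNAs in the table, miR-451a was 8.82 to 9.71 in BAT, 9.93 to 10.38 in SAT and 11.18 to 11.81 in VAT. MiR-144-5p was above the lowest value in VAT alone, at 4.59 to 4.69, and miR-144-3p was at the lowest value in all libraries. MiR-486-5p, which muscle also expresses, was instead highest in BAT, with 17.68 in each BAT library and 14.81 to 15.78 in SAT and VAT. The summed level of the list, which miR-486-5p dominates, was 17.68 in BAT, 14.86 to 15.28 in SAT and 14.95 to 15.87 in VAT.
Of 9 miRNAs known from gut and pancreas epithelium, none was above the lowest value in BAT, 6 were in SAT and 5 in VAT. MiR-200b-3p, an epithelial miRNA, was 8.65 in SAT 14 and 6.12 in VAT 20, and miR-375-3p, known from endocrine cells, was 6.72 in SAT 14. The pancreatic miR-216a-5p, miR-216b-5p and miR-217-5p were at the lowest value in all 9 libraries. The summed level of this list was 6.49 in every BAT library, where all 9 were at the lowest value, 6.49 to 9.66 in SAT and 6.56 to 7.99 in VAT. MiR-122-5p was at the lowest value in SAT 14 as in the other SAT libraries. MiR-192-5p was 9.40 in SAT 14, the highest of 3 SAT values that ranged over 0.54 on the log2 scale. What part muscle, blood or epithelium had in the members' levels was not tested.

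**Figure D4:**
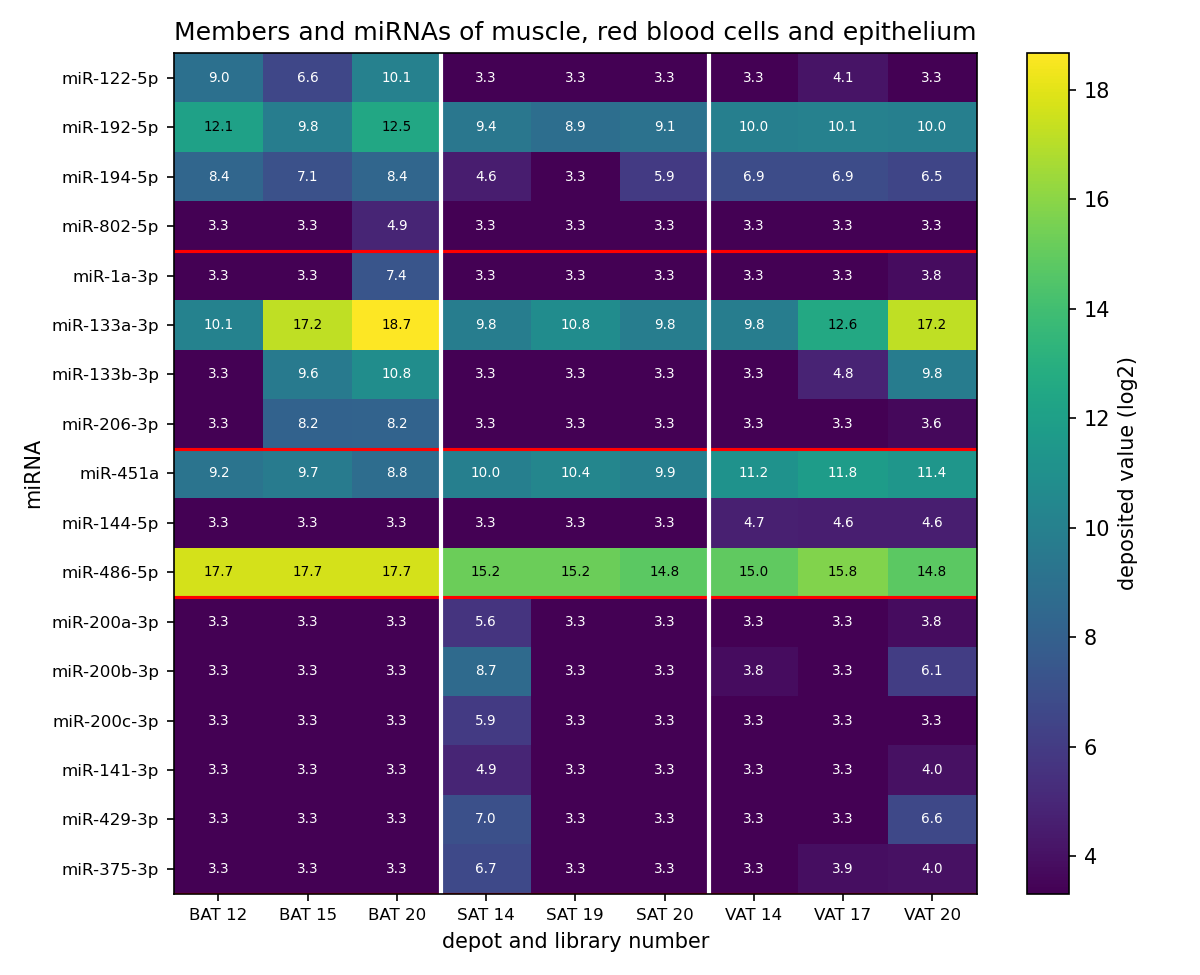
Log2 values (numbers and colour scale) of the 4 detected members and of the miRNAs of striated muscle, red blood cells and gut or pancreas epithelium that were above the lowest value in any library, set apart by red lines, with the 9 libraries as columns. MiR-133a-3p and miR-133b-3p are high in BAT 15, BAT 20 and VAT 20, miR-451a is highest in VAT, and the epithelial miRNAs are at 3.32 in all BAT libraries.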

How the data were processed

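Small RNA libraries were sequenced from BAT, SAT and VAT of HFD mice (n = 3 libraries per depot). The authors mapped reads to miRBase precursors, retained reads on mature miRNAs, shared multiply mapped reads in proportion, normalized to total usable reads and added 40 counts; the labels name mm10. The deposited values are log2 values whose lowest, 3.32, is the log2 of 10. Libraries hold nearly the same values at the same ranks, so that a value mostly reflects a rank. No counts are given. The paper states only an approximate number of mapped small RNA reads per sample, so that the depth of each library and the counting error are unknown.

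Values were used as deposited. Names had the prefix mmu- removed. MiRNAs exceeding the lowest value in 3 or more of the 9 libraries were compared, by depot means, SD and whether the libraries of 2 depots overlapped, with Python 3.11.15, numpy 2.4.6 and pandas 2.3.3. The overlap count and the correlation ranking were tested on simulated data. Members, lists and rules were set with earlier results of these data known, the muscle, blood and epithelium lists among them. No p-value is given. The miRNAs named are all members, the 3 most alike to each, 3 marker lists and 3 BAT miRNAs looked up later. Mature and hairpin sequences were read from RefSeq (GRCm38.p6) and locations from GENCODE M21 (GRCm38), the build of mm10. Alternatives were other offsets, other scalings, unlogged means, no filter, each library left out and the numbers shared by SAT and VAT. Libraries are separate samples by their labels, and no label ties them to mice.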

Additional observations from a re-analysis of the deposited data

How the results depend on the processing

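The 12 level differences of miR-122-5p, miR-192-5p, miR-194-5p and miR-802-5p had 145 alternative values. Of these, 134 moved by no more than 1 SD between libraries, 10 by more, and 1 changed sign. The SD was the larger one of the depots compared. Leaving out 1 of 3 libraries cannot move a depot mean by as much as 1 SD. Such alternatives could therefore not be among the 10, and the count of 134 does not measure how stable the differences are to them. The offset had the largest effect on miR-122-5p. With the lowest value subtracted and 1 added, its log2 difference was -7.45 in VAT minus BAT and -8.49 in SAT minus BAT, and with a further 40 added it was -3.06 and -3.13, as follows from the size of the offset. Its difference in VAT minus SAT, 0.27 from 1 library above the lowest value, was -0.079 after the libraries were quantile normalized again. Without each library in turn, miR-122-5p differed by -5.93 to -4.19 in VAT minus BAT and by -6.21 to -4.46 in SAT minus BAT, and the difference of miR-802-5p from BAT was 0.00 without BAT 20. The counts of members without overlap were the same in all alternatives but 1, VAT against BAT without BAT 15. An offset cannot alter overlap, and leaving out a library can only keep or raise such a count. Only the other scalings could have lowered it. Without a filter, 7.59% of all miRNAs were lower in VAT than in BAT without overlap, 5.76% lower in SAT than in BAT and 6.16% higher in VAT than in SAT.
The numbers 14 and 20 occur in both the SAT and the VAT titles, and 20 also in a BAT title. After depot means were subtracted, same-numbered SAT and VAT libraries correlated at -0.05 (14) and -0.14 (20) across the tested miRNAs, and BAT 20 correlated at 0.11 with SAT 20 and at 0.27 with VAT 20. No label ties the numbers to mice, so that the numbers were not taken as pairs. The correlations were not set beside those of differently numbered libraries. They cannot show whether equal numbers mean the same mouse. With 14 and 20 as a replicate block, the differences in VAT minus SAT were 0.73 for miR-192-5p and 1.46 for miR-194-5p. No paired test was run, since the members' differences received no test. The depth of each library is unknown, and it limits what can be said of members at the lowest value.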
